A study of Mus musculus with 9 samples.

Results

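The genes described here encode precursors of the cornified envelope, the enzymes that join them, and the kallikrein proteases and protease inhibitors of the upper epidermis. They were taken by name from the count table as every gene starting with Sprr or Lce, every Klk gene with a number, and Rptn, Hrnr, Flg2, Ivl, Lor, Tchh, Tgm1, Tgm3, Tgm5, Cst6, Sbsn, Krtdap, Crct1 and Spink5. Flg was also on the list and is not analysed here. This gave 73 names of the 22609 genes listed, and 72 measurements, because Sprr2a1 and Sprr2a2 held identical counts in every library and were counted once. RNA was sequenced from 9 tumors grown from 4T1 cells, a mouse mammary carcinoma line used as a model of triple-negative breast cancer, implanted at the mammary fat pad in mice of strain BALB/c. The low-fat diet (LFD) group ate a diet with 10% of its energy as fat and received the vehicle, 0.3% hydroxy propyl cellulose. The high-fat diet (HFD) group ate a diet with 60% of its energy as fat and received the same vehicle. The HFD + EC359 group ate the 60% fat diet and received EC359, an inhibitor of the leukemia inhibitory factor receptor (LIFR), intraperitoneally at 5 mg/kg on 5 days a week. Diets began 6 weeks before 500000 cells were injected, and treatment began once tumors had formed. Each group had 3 libraries, all from the same cell line. Sex and age of the mice, and whether skin over the tumor was removed, are not given in the sources used here.

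The cornified envelope is a sheet of crosslinked protein that replaces the plasma membrane of squamous cells as they die at the surface of the skin. Small proline-rich (SPRR) proteins, late cornified envelope (LCE) proteins, loricrin and involucrin are its building blocks, and transglutaminases bind them to each other. Kallikreins cut the links that hold dead cells together, and inhibitors such as the Spink5 product hold them back. The program is known from the epidermis, the lining of the mouth and squamous areas of tumors.

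Summed over the 72 measurements, the libraries held 287, 278 and 278 CPM (counts scaled to a library of 1000000) with LFD, 70.7, 70.0 and 72.7 CPM with HFD, and 278, 284 and 265 CPM with HFD + EC359. The HFD libraries were low and the other 6 lay well above them without overlap. The LFD mean, 281 ± 5.23 CPM (SD, n = 3), was 3.95-fold above the HFD mean of 71.1 ± 1.43 CPM (SD, n = 3). The HFD + EC359 mean, 276 ± 9.46 CPM (SD, n = 3), was 3.88-fold above the HFD mean and 0.98 times the LFD mean. In bulk tumor RNA, fewer cells of a type and less of an RNA per cell cannot be told apart, and this holds for every value here.

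The same shape was seen in most families, with different depth. SPRR2 genes summed to 11.3 ± 1.61 CPM with LFD, 0.349 ± 0.194 CPM with HFD and 11.6 ± 3.51 CPM with HFD + EC359 (SD, n = 3 each). Kallikreins Klk4 to Klk15 summed to 54.9 ± 2.93, 7.23 ± 0.694 and 52.6 ± 2.17 CPM in the same order. The S100-fused proteins Flg2, Hrnr, Rptn and Tchh went another way, with 25.2 ± 2.70, 16.2 ± 1.33 and 45.7 ± 1.501 CPM, so that the HFD + EC359 level was above that of the LFD group. The transglutaminases returned part of the way, with 31.0 ± 1.19, 10.4 ± 1.16 and 19.5 ± 1.55 CPM.

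**Figure D1:**
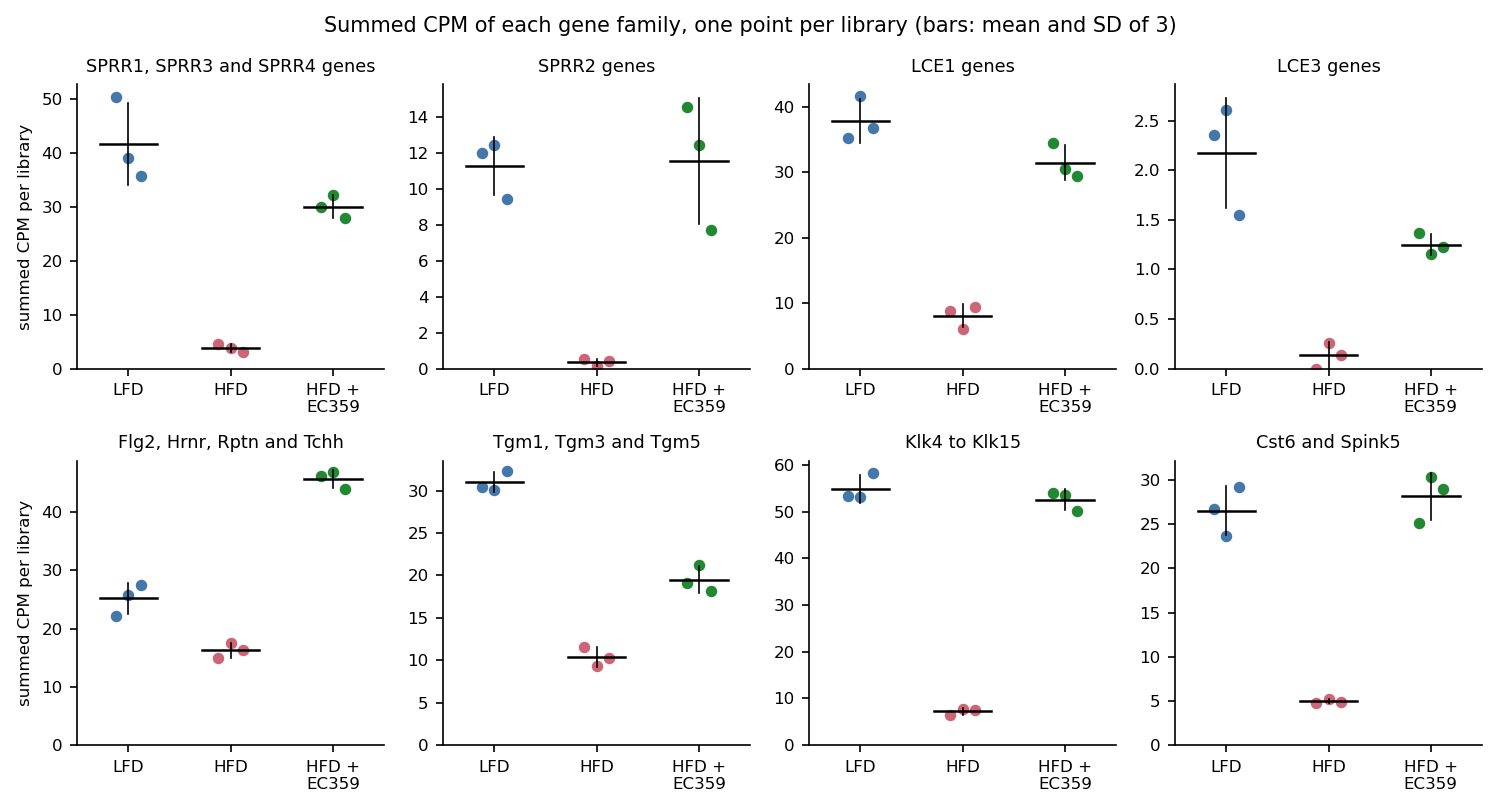
Summed CPM (y axis, linear, from 0) of 8 gene families in the LFD, HFD and HFD + EC359 groups (x axis); each point is 1 library, horizontal lines are means and vertical lines SDs of 3 libraries, cut off at 0. The HFD libraries were lowest in every panel, and the HFD + EC359 libraries lay above the LFD libraries only in the panel of Flg2, Hrnr, Rptn and Tchh.

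Of the 72 measurements, 14 had no count in any library, 58 had at least 1 count and 36 passed the filter on low counts and were tested, among 13366 genes tested. The libraries held 5085268 to 9750959 counts, so that 3 counts corresponded to 0.308 to 0.59 CPM. Of the tested measurements, 20 had under 10 counts in every HFD library and therefore passed the filter through the other groups, while 10 had at least 10 counts in every HFD library. A change was called where the fold change was over 2 and the adjusted p of edgeR's quasi-likelihood test, corrected over all genes tested, was under 0.01. The design text counts 9 tumors but does not say that each came from its own mouse, so p-values measure the spread between these libraries, which may be technical in part.

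With HFD against LFD, 31 of the 72 were lower and 0 were higher. At an adjusted p under 0.05 without a fold limit, 33 were lower and 1, Flg2, was higher. Over all genes tested, 2.68% were called lower and 3.02% higher, and 25.8% and 26% were so at an adjusted p under 0.05. With HFD + EC359 against HFD, 32 were higher and 0 were lower, against 2.08% and 1.38% of all genes tested, and the limit of 0.05 gave 34 and 0, against 12.7% and 13.8%. The median log2 fold change of the tested measurements was -2.71 in the first comparison and 2.49 in the second, beside 0.01 over all genes in each. Of the 36 tested, 20 passed the filter only through the groups where they were high. The medians and the counts of calls in these 2 comparisons therefore lean toward low HFD values by selection. Both comparisons use the same HFD libraries, so the 29 measurements called in both are a description of 3 groups and not 2 separate results. With HFD + EC359 against LFD, 2 were higher, Hrnr and Krtdap, and 0 were lower, against 3.66% and 1.43% of all genes tested. In that last comparison the median was -0.22, with 3 up and 8 down at an adjusted p under 0.05, beside 29.2% and 29.1% of all genes tested, so these counts are not above the background. Where edgeR called 0, the counts at an unadjusted p under 0.05 were 1 higher with HFD, 0 lower with EC359 against HFD and 11 lower with HFD + EC359 against LFD, beside 28.7%, 18.7% and 30.9% of all genes tested, and DESeq2 also called 0 in each of these directions.

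**Figure D2:**
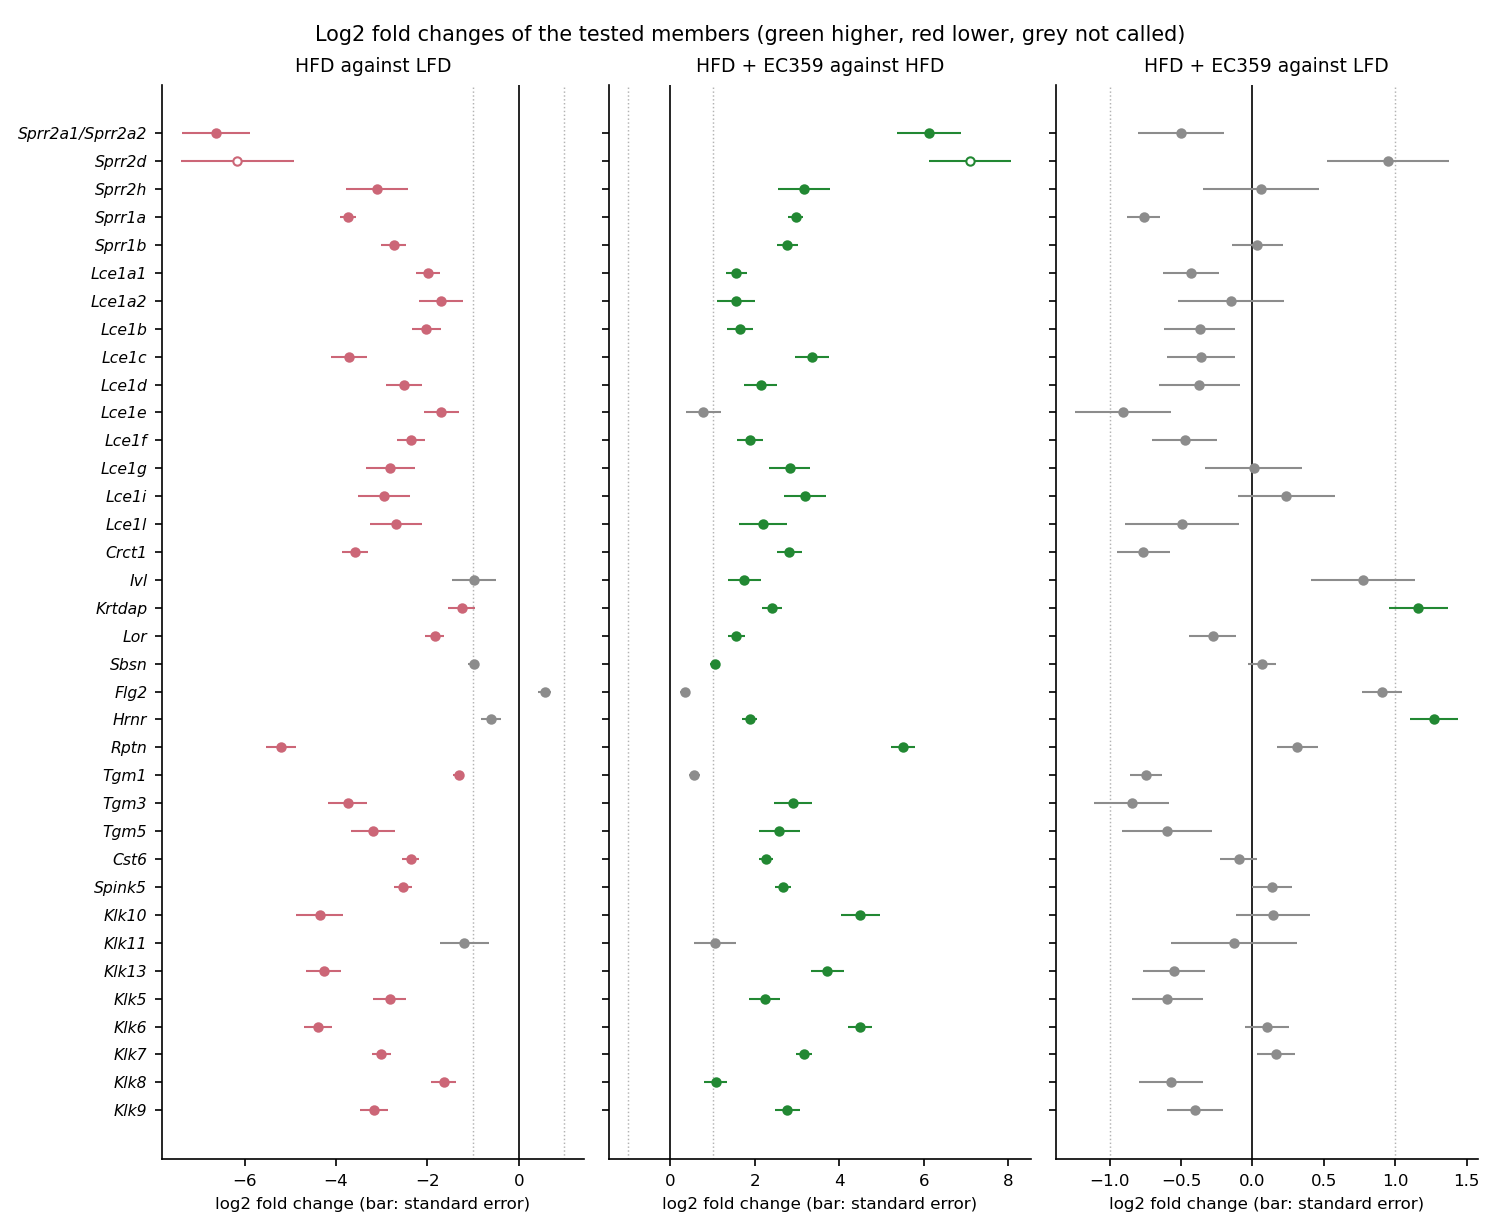
Log2 fold changes (x axis, a different range in each panel) of the 36 tested measurements (y axis) in the 3 comparisons; bars are standard errors, green points were called higher, red lower, and grey not called. The open points are Sprr2d, whose HFD libraries held no count, so that its fitted value is no estimate of size. Most points lie left of 0 in the first panel, right of 0 in the second and near 0 in the third.

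The start regions of 5 members are shown as examples of families described below, chosen after their values were seen: Sprr1a and Sprr2d of the SPRR genes, Rptn of the S100-fused genes, Krtdap, which was higher with HFD + EC359 than with LFD, and Klk6 of the kallikreins. The sequences are from RefSeq on the build GRCm38.p6, which differs from the mm9 build of the counts, and run from 250 bases before to 50 bases after a transcript start, in the direction of transcription. Capitals mark matches, on either strand, to the TATA box (TATAAA), a loose form of the AP-1 site (TGANTCA) and the Grainyhead site (AACCNGTT). N is any base, and the Rptn match, TGATTCA, differs at that base from the TGAGTCA of the other windows with a match. The windows are chr3:92485832-92486131 (minus strand) for Sprr1a, chr3:92338890-92339189 (plus) for Sprr2d, chr3:93393449-93393748 (plus) for Rptn, chr7:30787655-30787954 (plus) for Krtdap and chr7:43824294-43824593 (plus) for Klk6.
Sprr1a: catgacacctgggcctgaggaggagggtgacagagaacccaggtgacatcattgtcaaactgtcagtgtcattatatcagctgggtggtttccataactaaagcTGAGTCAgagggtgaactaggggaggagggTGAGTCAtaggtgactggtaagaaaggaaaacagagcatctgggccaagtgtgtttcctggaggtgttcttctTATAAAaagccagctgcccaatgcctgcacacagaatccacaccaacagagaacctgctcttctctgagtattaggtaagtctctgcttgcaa
Sprr2d: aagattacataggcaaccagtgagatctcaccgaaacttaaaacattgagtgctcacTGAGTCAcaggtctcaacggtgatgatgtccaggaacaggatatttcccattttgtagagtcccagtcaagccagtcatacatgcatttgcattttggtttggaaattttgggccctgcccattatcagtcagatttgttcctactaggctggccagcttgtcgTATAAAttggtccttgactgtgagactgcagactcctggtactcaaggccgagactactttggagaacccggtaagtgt
Rptn: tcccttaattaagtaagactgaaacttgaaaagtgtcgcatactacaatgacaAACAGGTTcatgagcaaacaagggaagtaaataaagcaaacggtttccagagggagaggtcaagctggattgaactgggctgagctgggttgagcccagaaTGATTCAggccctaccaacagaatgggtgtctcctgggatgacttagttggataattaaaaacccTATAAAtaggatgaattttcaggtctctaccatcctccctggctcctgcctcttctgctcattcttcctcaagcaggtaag
Krtdap: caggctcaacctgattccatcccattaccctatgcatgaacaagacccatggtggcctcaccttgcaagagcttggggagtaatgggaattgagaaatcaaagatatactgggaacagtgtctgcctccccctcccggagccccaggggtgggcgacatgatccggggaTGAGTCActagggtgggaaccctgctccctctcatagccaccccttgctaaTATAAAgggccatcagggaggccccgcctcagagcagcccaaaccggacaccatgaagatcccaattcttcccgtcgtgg
Klk6: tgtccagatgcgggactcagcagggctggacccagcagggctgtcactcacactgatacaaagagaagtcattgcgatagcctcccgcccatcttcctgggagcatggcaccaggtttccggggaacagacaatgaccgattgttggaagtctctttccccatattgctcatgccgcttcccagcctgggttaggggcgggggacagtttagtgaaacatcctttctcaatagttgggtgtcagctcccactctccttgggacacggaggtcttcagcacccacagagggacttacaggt

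In Sprr1a, a pair of AP-1 matches began 146 and 116 bases before the start and a TATA match 43 bases before it. In Sprr2d the AP-1 match began 193 bases and the TATA match 29 bases before the start. Rptn had TGATTCA, a match to the loose AP-1 pattern, at 96 bases and a TATA match at 31 bases. Its Grainyhead match, read on the other strand, was at 197 bases. Krtdap had AP-1 at 81 bases and TATA at 30 bases, and the Klk6 window held no match to any motif searched. None of the marked matches overlapped another. A match is a run of letters and was not tested for binding.

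RefSeq windows were found for 66 of the 73 names, in 69 promoters. TGANTCA was present in 15 of them (21.7%) and in 7.81% of 32851 promoters of the same length. By family it was in 7 of 9 SPRR2 windows, the other two being those of Sprr2a1 and Sprr2a2, which also held no TATAAA, 2 of 4 of the other SPRR genes, 2 of 4 of the S100-fused genes and 4 of 4 of the other envelope genes with a window. It was in 0 of 11 LCE1 windows, 0 of 14 windows of Klk4 to Klk15 and 0 of 14 of Klk1 and Klk1b. Matches to TATAAA were in 20 of 69 windows (29.0%) against 13.6% of all promoters, with 7 of 9 for SPRR2. The STAT motif TTCNNNGAA was in 4 of 69 (5.80%) against 8.30% of all, AACCNGTT in 3 of 69 (4.35%) against 2.09%, and the KLF motif GGGTGTG in 3 of 69 (4.35%) against 7.95%. The SPRR2 genes, with 7 of the 15 windows that held TGANTCA, are neighbours of 1 family. Their windows may not be separate cases, and the shares were not tested against those of all promoters. The absence of TGANTCA from the kallikrein windows says nothing of whether the factor acts on them.

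Sprr1a, an envelope precursor of the skin and of injured epithelia, had the highest level per length of all members in the LFD group, at 41.9 CPM per kb of exon. It held 40.1, 30.1 and 29.1 CPM in the LFD libraries, 3.03, 2.49 and 2.05 CPM in the HFD libraries, and 21.8, 21.5 and 18.0 CPM in the HFD + EC359 libraries. The groups did not overlap, and the HFD + EC359 libraries lay between the others. The log2 fold change was -3.73 (SE 0.18, adjusted p = 6.62e-18, edgeR) with HFD and 2.97 (SE 0.18, adjusted p = 1.04e-14) with EC359 against HFD. Between HFD + EC359 and LFD it was -0.76 (SE 0.11, adjusted p = 7.53e-07), which did not reach the fold limit. Its neighbour Sprr1b, of the same function, was at 8.35 ± 1.85, 1.26 ± 0.282 and 8.89 ± 1.51 CPM (SD, n = 3 each), and its log2 change between HFD + EC359 and LFD was 0.03 (SE 0.18, adjusted p = 0.879).

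Sprr2 genes encode the second group of small proline-rich precursors and were close to absent from the HFD libraries. Sprr2d had 8, 8 and 4 counts in the LFD libraries, 0 in all 3 HFD libraries and 28, 22 and 12 counts in the HFD + EC359 libraries. Set against 3 counts in each HFD library, its HFD level was at least 2.95-fold lower than that with LFD, and its HFD + EC359 level at least 6.13-fold higher than that with HFD. The Sprr2a1/Sprr2a2 measurement, whose gene of origin is uncertain, had 32, 41 and 27.5 counts with LFD, 0, 0 and 1 with HFD, and 49, 50.5 and 13.5 with HFD + EC359. HFD + EC359 library 3 was low here and in Sprr2d, and high in Sprr2h, so the SPRR2 genes did not move together within that group. The ratio of LFD to HFD for Sprr2a1/Sprr2a2 was 133 (95% exact interval 23.3 to 5291, counting error only) and that of HFD + EC359 to HFD was 97.6 (17.2 to 3889). Sprr2h was 14, 17 and 3 counts with LFD, 3, 0 and 2 with HFD, and 14, 13 and 30 with HFD + EC359, and was called in both comparisons (log2 -3.11 and 3.17, adjusted p = 0.00027 and 0.000197, edgeR). Sprr2b, Sprr2e, Sprr2f, Sprr2g and Sprr2i did not pass the filter and held 11 to 30 counts over all 9 libraries, of which the 3 HFD libraries together had 0 or 1. Sprr4, a more distant member, had 0, 4 and 1 counts with LFD, 0 in each HFD library and 8, 5 and 5 with HFD + EC359, Sprr2j-ps had 1 count, and Sprr2k and Sprr3 had none.

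LCE proteins are attached late, on the inner side of the envelope. All 12 LCE1 genes had counts, and 10 were tested: 10 were lower with HFD and 9 higher with EC359. Lce1c had 26, 30 and 25 counts with LFD, 1, 2 and 5 with HFD, and 32, 33 and 36 with HFD + EC359, with no overlap of the HFD libraries with the rest. Its log2 changes were -3.71 (SE 0.40, adjusted p = 2.93e-09, edgeR) and 3.35 (SE 0.40, adjusted p = 5.35e-08). Lce1a1 was at 5.90, 6.91 and 7.40 CPM with LFD, 2.02, 1.18 and 2.05 CPM with HFD, and 5.72, 5.30 and 4.92 CPM with HFD + EC359. The HFD level of Lce1a1 was thus a larger share of the LFD level than that of Lce1c, and its log2 changes were -1.98 (SE 0.25) and 1.56 (SE 0.25).

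Lce1e, another of this group, was lower with HFD (log2 -1.69, SE 0.39, adjusted p = 0.000528, edgeR) and was not called higher with EC359 (log2 0.78, SE 0.41, adjusted p = 0.166). Its call with HFD was lost without LFD library 3 (log2 -1.40, adjusted p = 0.0109). The other tested LCE1 genes, Lce1b, Lce1d, Lce1f, Lce1g, Lce1i, Lce1l and Lce1a2, had log2 changes of -2.02, -2.51, -2.35, -2.81, -2.95, -2.68 and -1.70 with HFD, and of 1.65, 2.14, 1.88, 2.82, 3.18, 2.19 and 1.55 with EC359 against HFD. Lce1a2 sat at the limit with EC359 (adjusted p = 0.01, under the limit before rounding), and both of its calls and that of Lce1l with EC359 were lost without one or another library, as given in the closing section. Lce1h passed 1 CPM in the LFD group only, with 8, 14 and 7 counts there, 1, 3 and 0 with HFD and 5, 10 and 5 with HFD + EC359, and was not tested. LCE3 genes, which are known from damaged skin, had 9 to 32 counts each over all libraries, and Lce3a and Lce3c had 0 in all 3 HFD libraries. Lce6a and Lce1m ran against the rest: Lce6a had 0 counts in each LFD library, 2 in each HFD library and 4 in each HFD + EC359 library, and Lce1m had 1, 3 and 2, then 4, 4 and 5, then 9, 3 and 14.

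Loricrin, the main protein of the envelope in skin, changed less than the SPRR genes. Lor was at 13.6, 9.53 and 8.94 CPM with LFD, 3.16, 2.75 and 3.14 CPM with HFD, and 10.1, 8.18 and 9.23 CPM with HFD + EC359. The HFD libraries lay below the other 6, which overlapped. The log2 changes were -1.84 (SE 0.21, adjusted p = 7.06e-09, edgeR) and 1.56 (SE 0.20, adjusted p = 2.41e-07). Crct1, a cysteine-rich gene of the same chromosomal complex, was at 11.01, 9.22 and 7.91 CPM with LFD, 0.505, 0.917 and 0.957 CPM with HFD, and 4.85, 6.68 and 5.74 CPM with HFD + EC359. Its groups did not overlap, and its log2 changes were -3.58 (SE 0.29, adjusted p = 4.33e-12), 2.82 (SE 0.30, adjusted p = 6.32e-09) and, for HFD + EC359 against LFD, -0.76 (SE 0.19, adjusted p = 0.000745).

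Ivl, which encodes involucrin, an early scaffold of the envelope, was weakly covered. It had 3, 12 and 13 counts with LFD, 5, 5 and 9 with HFD, and 19, 20 and 38 with HFD + EC359, and the LFD and HFD libraries overlapped. It was called higher with EC359 against HFD (log2 1.75, SE 0.39, adjusted p = 0.000861, edgeR) but not lower with HFD (log2 -0.98, SE 0.48, adjusted p = 0.0891). The call with EC359 was lost without HFD + EC359 library 3 (log2 1.43, adjusted p = 0.0194), HFD library 1 (1.58, adjusted p = 0.0122) or HFD library 2 (1.61, adjusted p = 0.0102).

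Sbsn and Krtdap, which encode the secreted proteins suprabasin and keratinocyte differentiation-associated protein, kept a larger share of their level with HFD. Sbsn was at 24.97, 23.7 and 22.0 CPM with LFD, 12.4, 12.7 and 11.5 CPM with HFD, and 25.6, 26.0 and 26.0 CPM with HFD + EC359. The log2 change with HFD was -0.99 (SE 0.11, adjusted p = 7.49e-09, edgeR), just inside the fold limit and so not called, and it was called without HFD library 1 or 2 or LFD library 3 (-1.001, -1.02 and -1.04). With EC359 against HFD it was 1.05 (SE 0.10, adjusted p = 7.84e-10). Krtdap had 18, 30 and 33 counts with LFD, 9, 15 and 22 with HFD, and 73, 100 and 118 with HFD + EC359. Relative to library size the HFD libraries were lowest and the HFD + EC359 libraries highest, without overlap. Its log2 changes were -1.24 (SE 0.30, adjusted p = 0.000686) with HFD, 2.40 (SE 0.23, adjusted p = 4.86e-10) with EC359 against HFD, and 1.16 (SE 0.21, adjusted p = 1.29e-05) for HFD + EC359 against LFD. The first of these was -0.95 (adjusted p = 0.0109) without HFD library 1, and the last was 0.998 (adjusted p = 0.000107), just inside the fold limit, after each library's trend with GC content was removed.

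The S100-fused proteins are large repeat proteins that surround keratin filaments and join the envelope, and the tested 3 of the family differed most among themselves. Repetin (Rptn) had 42, 86 and 73 counts with LFD, 3, 2 and 2 with HFD, and 117, 134.5 and 148 with HFD + EC359. It was nearly lost from the HFD libraries, and in CPM every HFD + EC359 library was above every LFD library. The log2 changes were -5.20 (SE 0.32, adjusted p = 6.33e-15, edgeR) and 5.51 (SE 0.29, adjusted p = 1.13e-16), and 0.31 (SE 0.14, adjusted p = 0.0578) for HFD + EC359 against LFD. Hornerin (Hrnr) was at 6.69, 4.61 and 6.36 CPM with LFD, 3.91, 4.85 and 3.01 CPM with HFD, and 15.4, 15.4 and 13.7 CPM with HFD + EC359. Here the LFD and HFD libraries overlapped and the HFD + EC359 libraries stood above both. The log2 changes were -0.60 (SE 0.22, adjusted p = 0.0227), 1.88 (SE 0.17, adjusted p = 1.27e-10) and 1.27 (SE 0.17, adjusted p = 8.02e-08).

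Flg2, which encodes filaggrin-2, had its own order. It was at 7.08, 7.68 and 8.26 CPM with LFD, 10.5, 12.2 and 12.6 CPM with HFD, and 15.2, 15.8 and 14.7 CPM with HFD + EC359, with no overlap between groups. The log2 changes were 0.56 (SE 0.15, adjusted p = 0.00226, edgeR), 0.34 (SE 0.12, adjusted p = 0.0338) and 0.91 (SE 0.14, adjusted p = 1.74e-06), all inside the fold limit. Reads that match repeats were counted as fractions, and Flg2 had fractional counts in 9 libraries and Hrnr in 5, so reads shared between copies or genes enter both values. Tchh, which encodes trichohyalin of the hair root sheath, held 25 counts in all and was not tested.

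**Figure D3:**
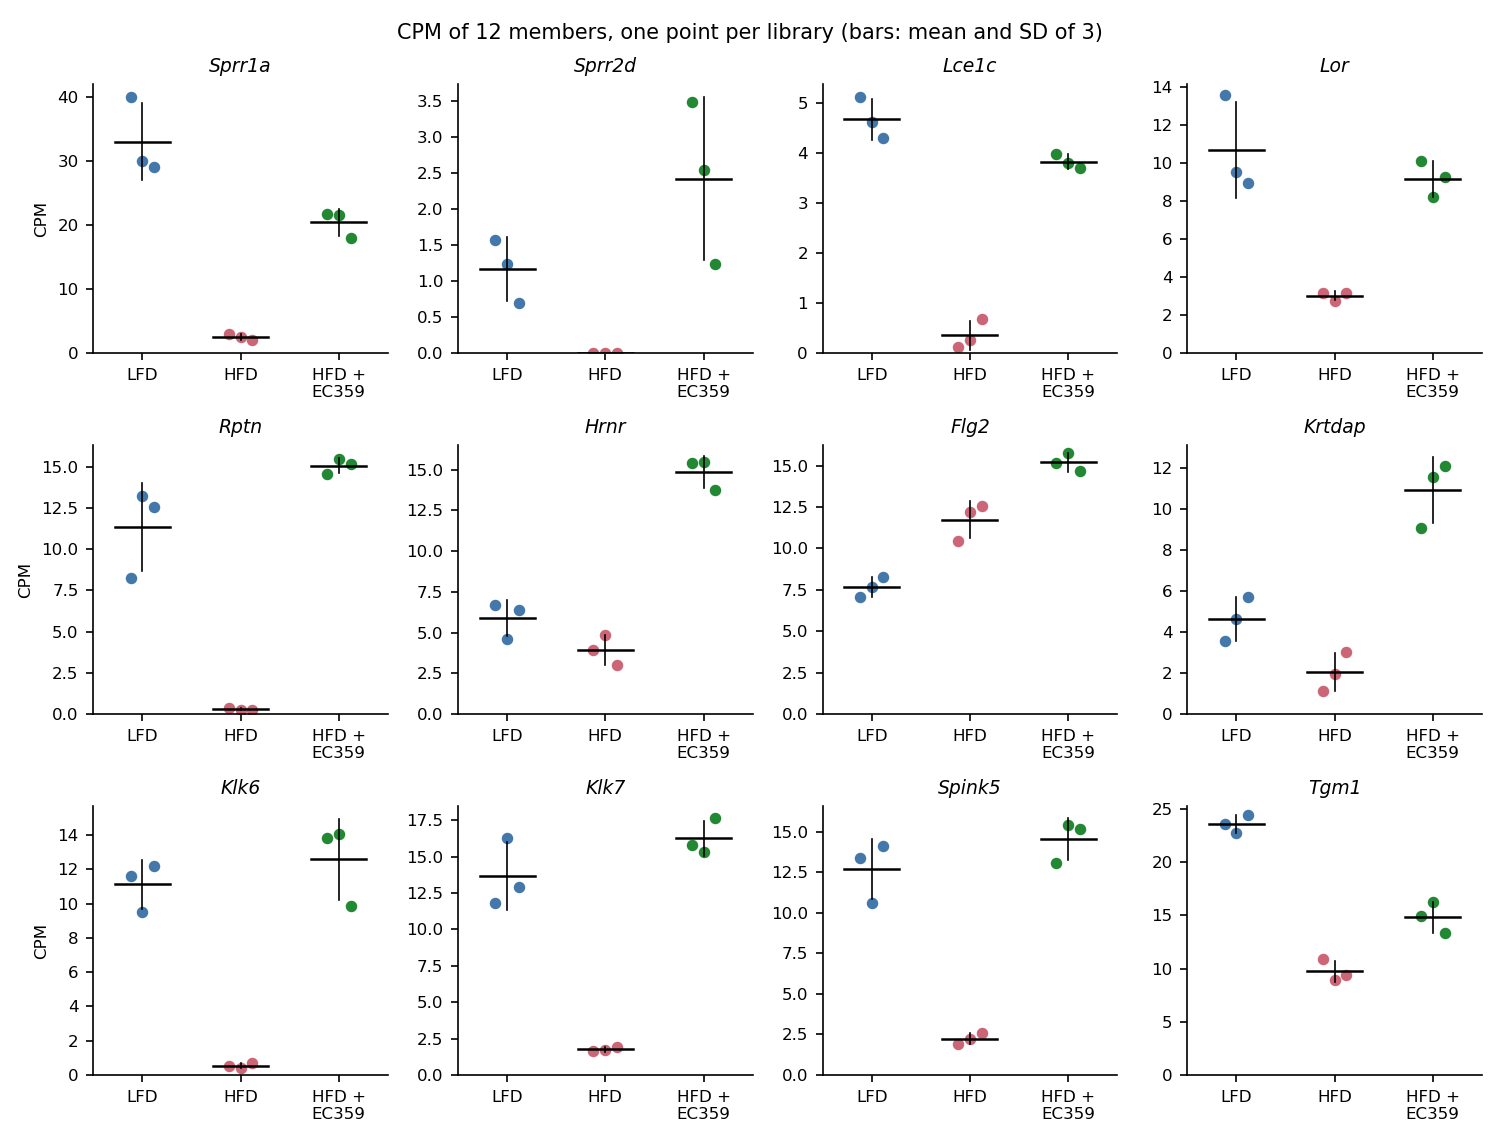
CPM (y axis, linear, from 0, a different range in each panel) of 12 members in the LFD, HFD and HFD + EC359 groups (x axis); each point is 1 library, horizontal lines are means and vertical lines SDs of 3 libraries. The HFD libraries lay lowest in 11 of the panels, overlapping LFD in that of Hrnr, while Flg2 was lowest in the LFD libraries.

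Transglutaminases catalyse the bonds between envelope proteins. Tgm1, the membrane-bound enzyme of keratinocytes, was at 23.6, 22.7 and 24.4 CPM with LFD, 10.9, 8.91 and 9.43 CPM with HFD, and 14.9, 16.2 and 13.3 CPM with HFD + EC359. The groups did not overlap, and the HFD + EC359 libraries were nearer to the HFD than to the LFD libraries. The log2 changes were -1.31 (SE 0.12, adjusted p = 1.66e-10, edgeR), 0.57 (SE 0.13, adjusted p = 0.000859), which did not reach the fold limit, and -0.75 (SE 0.11, adjusted p = 9.06e-07). Tgm3, the enzyme of the hair follicle and upper epidermis, had 23, 29 and 21 counts with LFD, 2, 3 and 2 with HFD, and 15, 23 and 27 with HFD + EC359. Its log2 changes were -3.75 (SE 0.42, adjusted p = 5.38e-09) and 2.90 (SE 0.45, adjusted p = 5.63e-06). Tgm5, a further epidermal enzyme, had 12, 19 and 25 counts, then 4, 0 and 4, then 19, 20 and 20, and was called in both comparisons (-3.18 and 2.58). Transglutaminase genes outside the epidermal set did not follow: Tgm2, the widely expressed form, was at 356 ± 18.2, 567 ± 3.71 and 505 ± 1.94 CPM (SD, n = 3 each), and F13a1, the macrophage and plasma form, at 77.9 ± 7.26, 126 ± 7.98 and 130 ± 4.82 CPM, and neither was called in any comparison.

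Kallikreins 5 to 13 include the proteases that shed the outermost cells of the skin. Of the 12 genes Klk4 to Klk15, 8 were tested, 7 were lower with HFD, 7 were higher with EC359 against HFD, and none was called between HFD + EC359 and LFD by edgeR, where 3 were lower at an adjusted p under 0.05. Klk6 was at 11.6, 9.53 and 12.2 CPM with LFD, 0.505, 0.393 and 0.684 CPM with HFD, and 13.8, 14.1 and 9.85 CPM with HFD + EC359. The HFD libraries, with 3 to 5 counts each, lay far below the other 6, which overlapped. Its log2 changes were -4.39 (SE 0.31, adjusted p = 1.24e-13, edgeR) and 4.495 (SE 0.28, adjusted p = 1.58e-14). Klk7, the chymotryptic enzyme of the cornified layer, was at 11.8, 16.3 and 12.9 CPM, then 1.64, 1.70 and 1.91 CPM, then 15.8, 15.3 and 17.6 CPM. Its log2 changes were -3.01 (SE 0.21, adjusted p = 1.16e-13) and 3.18 (SE 0.19, adjusted p = 4.77e-15). Klk5, the trypsin-like enzyme that can activate Klk7, was at 4.92, 5.99 and 4.64 CPM, then 1.26, 0.262 and 0.684 CPM, then 4.35, 3.11 and 3.49 CPM.

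Klk10 and Klk13 changed about as much as Klk6. Klk10 had 20, 19 and 27 counts with LFD, 0, 3 and 1 with HFD, and 33, 43 and 41 with HFD + EC359 (log2 -4.36 and 4.5003). Klk13 had 28, 34 and 43 counts, then 1, 4 and 2, then 32, 38 and 45 (log2 -4.27 and 3.72). Klk9 was called in both comparisons (log2 -3.17 and 2.77), as was Klk5 (-2.83 and 2.23). Klk8, the kallikrein also known as neuropsin, changed least among those called: it was at 8.26, 4.46 and 7.22 CPM with LFD, 2.02, 2.62 and 1.78 CPM with HFD, and 5.47, 4.72 and 3.79 CPM with HFD + EC359. Its log2 change with EC359 against HFD was 1.07 (SE 0.27, adjusted p = 0.00283, edgeR), and the call was lost without HFD + EC359 library 1 or 2 (0.95 and 1.05) or HFD library 1 or 3 (1.02 and 0.95). Klk11 was not called in any comparison, with 8, 10 and 6 counts, then 2, 7 and 5, then 8, 19 and 8. Klk4, Klk12 and Klk14 held 3 to 8 counts over all libraries, and Klk15 held none.

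Klk1 and the 14 Klk1b genes, the glandular kallikreins known from salivary gland and kidney, were near the detection limit in all groups, summing to 0.807, 0.783 and 0.418 CPM on average. Klk1 had 4, 4 and 3 counts with LFD, 7, 5 and 4 with HFD, and 2, 2 and 2 with HFD + EC359, and was not tested. The reads of near-identical Klk1b copies may be divided among them, and Klk1b26 overlaps Egfbp2 on the same strand.

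The inhibitors moved with the proteases. Spink5, whose product LEKTI blocks kallikreins 5 and 7 among others, was at 13.4, 10.6 and 14.1 CPM with LFD, 1.89, 2.23 and 2.60 CPM with HFD, and 13.1, 15.4 and 15.2 CPM with HFD + EC359. Cst6, which encodes cystatin M/E, an inhibitor of cysteine proteases that act on transglutaminases, was at 13.4, 13.1 and 15.1 CPM, then 2.90, 3.01 and 2.32 CPM, then 12.1, 14.9 and 13.8 CPM. In both, the HFD libraries lay below the rest and the LFD and HFD + EC359 libraries overlapped. The log2 changes of Spink5 were -2.53 (SE 0.20, adjusted p = 4.66e-12, edgeR) and 2.67 (SE 0.19, adjusted p = 2.66e-13), and those of Cst6 -2.37 (SE 0.19, adjusted p = 2.49e-12) and 2.27 (SE 0.18, adjusted p = 3.37e-12).

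The order of levels per length also changed between groups. In the HFD libraries the highest members were Sbsn at 5.33, Krtdap at 4.47, Tgm1 at 3.24 and Sprr1a at 3.19 CPM per kb. With HFD + EC359 they were Sprr1a at 25.9, Krtdap at 23.9, Sbsn at 11.3 and Sprr1b at 10.8 CPM per kb, while with LFD Sprr1a stood at 41.9, Crct1 at 13.1, Sbsn at 10.3, Sprr1b at 10.2 and Krtdap at 10.1 CPM per kb. The last 3 of these did not differ beyond their spread. Leaving out Flg2, Hrnr, Sbsn and Krtdap, which were chosen after their values were seen, the remaining measurements summed to 240 ± 4.81, 41.2 ± 2.57 and 209 ± 8.77 CPM (SD, n = 3 each), a 5.81-fold difference between LFD and HFD and a 5.06-fold difference between HFD + EC359 and HFD.

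Over the 58 measurements with a count, the HFD mean was the lowest in 47, the LFD mean in 6 and the HFD + EC359 mean in 5. Those under LFD include Sprr2j-ps, Klk1b24 and Klk1b4, which tied at 0 in the LFD and HFD groups. All 3 HFD libraries were below all 3 LFD libraries in 41 of the 72 and above them in 3, against 24.9% and 32.3% of all genes tested. These shares of all genes, and those that follow, cover only genes that passed the filter on low counts, whereas 36 of the 72 did not pass it, so the counts and shares are not like for like. All 3 HFD + EC359 libraries were above all 3 HFD libraries in 44 and below them in 1, against 24.6% and 16.9%. Between HFD + EC359 and LFD, 9 were separated upward and 14 downward, against 37.7% and 25.6%.

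On the mm9 build, 38 of the measurements lie on chromosome 3 and 29 on chromosome 7, and most are in a pair of clusters, which the order plot shows. The epidermal differentiation complex (chr3:91884193-93252999) holds 39 of the names and 7 other listed genes. Of these other genes, Kprp, a keratinocyte proline-rich protein, was lower with HFD (log2 -1.55, adjusted p = 0.000166, edgeR) and higher with EC359 (2.23, adjusted p = 8.71e-08). The gene 2310050C09Rik did the same (-1.73, adjusted p = 0.00182, and 2.102, adjusted p = 0.000108), and Prr9 had 18 counts. Within the complex Lor and the tested SPRR and LCE1 genes were lower with HFD, whereas the untested Lce6a and Lce1m had more counts with HFD than with LFD. In the order of the listed genes, Flg2 is followed by Hrnr, neither called with HFD, and Hrnr by Rptn (log2 -5.20). Flg, which is not analysed here, has no place in this order, so neighbours in it need not be neighbours on the chromosome. In the kallikrein cluster (chr7:50945788-51484987, 27 names) the tested genes all lie in the stretch from Klk13 to Klk5, and the stretch of Klk1 and Klk1b genes held at most 33 counts for any gene.

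**Figure D4:**
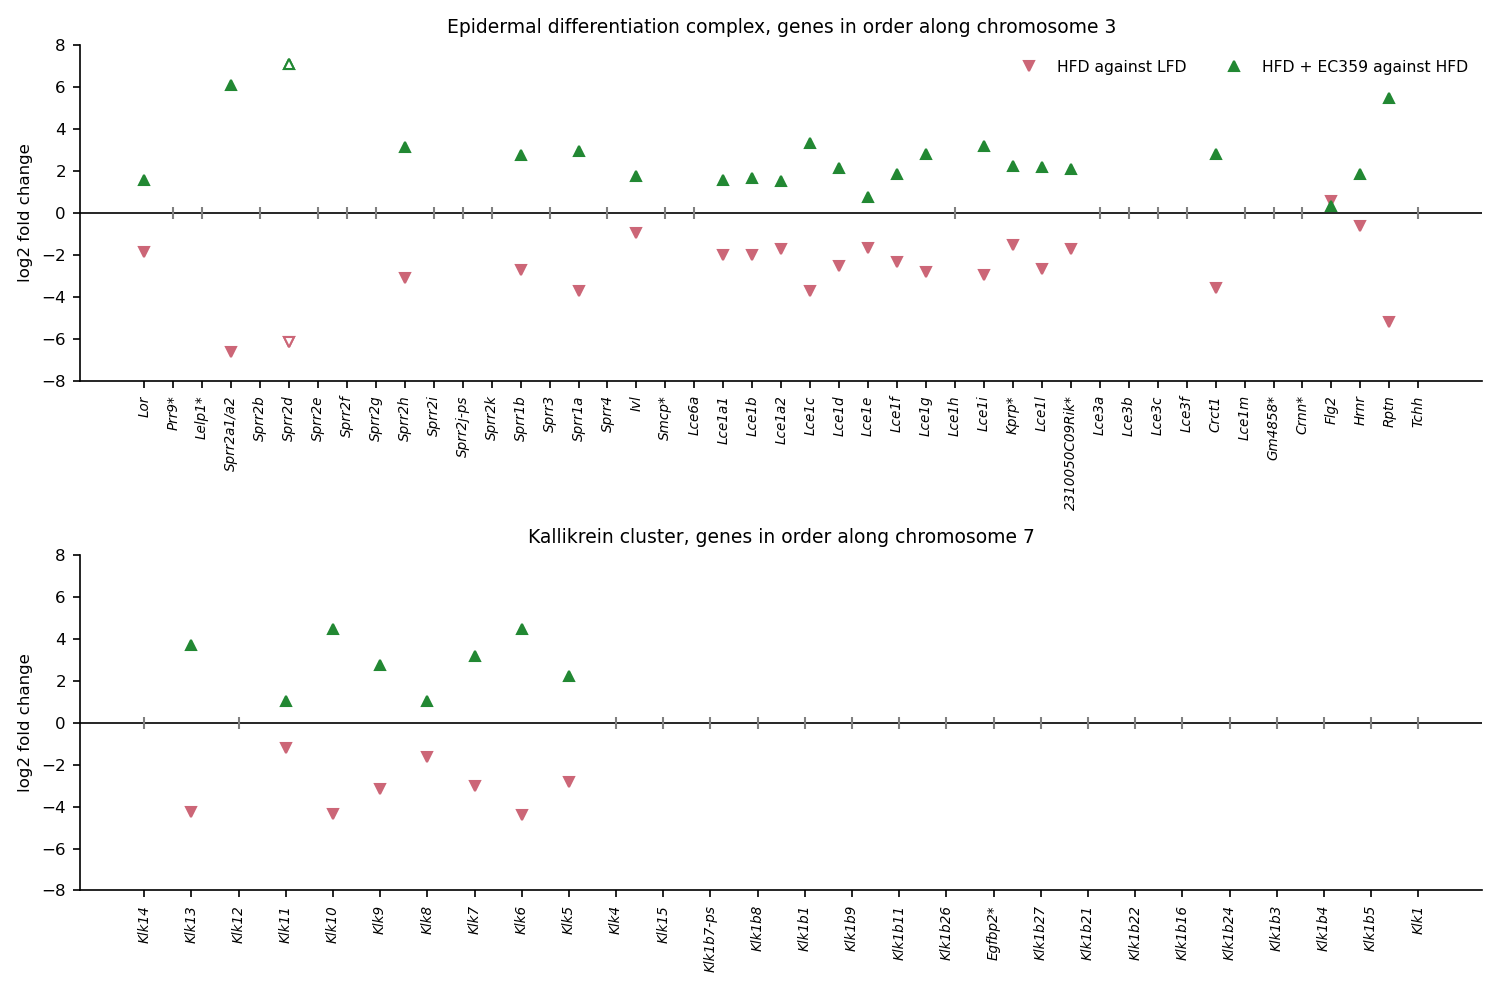
Log2 fold changes (y axis) of HFD against LFD (red, pointing down) and HFD + EC359 against HFD (green, pointing up) for the genes of the epidermal differentiation complex and the kallikrein cluster in their order along the chromosome (x axis, not to scale). Grey ticks at 0 are genes not tested, stars mark genes outside the named set, and open points are Sprr2d, whose HFD libraries held no count. Flg2 is the one gene with both points above 0, and is followed by Hrnr and Rptn in the order of the genes listed.

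Other genes of the same program were read from lists that do not overlap the named set. Of 14 tested envelope scaffold and cornified desmosome genes, 8 were lower with HFD, 1 was higher and 8 were higher with EC359 against HFD. Those lower included Dsp (desmoplakin, log2 -2.81 and 2.28 in the respective comparisons), Evpl (envoplakin, -2.55 and 1.52), Pkp1 (plakophilin 1, -3.11 and 2.49) and Cdsn (corneodesmosin, a kallikrein substrate, -2.05 and 1.95), and the one higher with HFD was S100a11 (1.06). The most abundant of this list, Anxa1, S100a10 and Ppl, were not called (log2 0.20, 0.34 and -0.38 with HFD). Of 15 barrier lipid genes, 7 were lower with HFD, 5 higher with EC359 against HFD, and 2 lower with HFD + EC359 against LFD. Abca12, the lipid transporter of lamellar granules, was at -1.73 and 2.18, and its mean with HFD + EC359 (13.3 CPM) was above that with LFD (9.29 CPM). Others returned in part: Elovl4 averaged 38.4, 5.73 and 20.4 CPM in the LFD, HFD and HFD + EC359 groups, and Fa2h 20.4, 1.84 and 5.21 CPM. Sptlc2 and Ugcg, which act in sphingolipid metabolism of many cells, were at -0.01 and 0.19 with HFD. Of 15 other epidermal proteases and inhibitors, 6 were lower and 5 higher, with Casp14, the caspase of cornifying cells, at -3.32 and 2.38, and the abundant Ctsl, Ctsd and Slpi were not called (-0.31, -0.13 and -0.83 with HFD).

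Of 16 transcription factors of squamous differentiation, 9 were lower with HFD and 7 higher with EC359 against HFD. Among them were Grhl1 (-2.67 and 2.12) and Grhl3 (-2.47 and 1.92), of the Grainyhead family, Ovol1 (-2.99 and 2.07), Zfp750 (-2.62 and 2.41) and Trp63 (-1.96 and 1.93), whose products drive or maintain stratified epithelium. Klf5 averaged 67.2, 30.3 and 27.8 CPM in the LFD, HFD and HFD + EC359 groups, and so did not return. Of the 16, 1 was called lower with HFD + EC359 against LFD. The abundant Gata3 and Maf, which other cells of a tumor also express, were at 0.45 and -0.18 with HFD and were not called. Of 7 other tested genes of the epidermal differentiation complex, 2 were lower with HFD and 2 higher with EC359, S100a14 (-3.44 and 1.998) and Kprp, while S100a6, S100a9 and S100a8 were not called in either. S100a8, a neutrophil and stressed keratinocyte gene, was higher in HFD + EC359 than in LFD (1.63, SE 0.14, adjusted p = 1.19e-11, edgeR). For the 2 tested genes of the other transglutaminases the values are given above.

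Most keratinocyte markers moved with the named genes, though not all those of the upper layers. The 10 markers, all with counts, summed to 1132 to 1278 CPM with LFD, 188 to 203 CPM with HFD and 601 to 613 CPM with HFD + EC359, and 6 of 9 tested were lower with HFD and 6 higher with EC359. Krt14 and Krt5, the keratins of basal cells, were at 740 ± 59.6 and 246 ± 13.3 CPM with LFD, 40.7 ± 0.326 and 30.6 ± 4.75 CPM with HFD, and 243 ± 2.77 and 147 ± 3.73 CPM with HFD + EC359 (SD, n = 3 each). Most of the sum with LFD and with HFD + EC359 came from these keratins. In the LFD, HFD and HFD + EC359 groups, Krt15 averaged 15.12, 3.698 and 23.9985 CPM and Dsg3 7.85, 0.481 and 9.14 CPM. Col17a1 averaged 47.997, 8.75 and 49.04 CPM and Trp63 11.65, 3.06 and 12.04 CPM in the same order. All were above their LFD mean with EC359, and the LFD and HFD + EC359 libraries overlapped in all but Krt15. Keratins of the layers above the basal cells differed among themselves. Krt2 was low throughout and higher with HFD than with LFD, averaging 0.0512, 0.819 and 0.346 CPM in the LFD, HFD and HFD + EC359 groups. Krt1 was at 79.0 ± 6.32, 41.1 ± 3.73 and 58.7 ± 2.90 CPM (SD, n = 3 each), without overlap of the groups, and its log2 changes of -0.99 (SE 0.07, adjusted p = 7.76e-13, edgeR) and 0.49 (SE 0.07, adjusted p = 4.17e-06) were inside the fold limit. Krt10 had log2 changes of 0.06 (SE 0.08, adjusted p = 0.520, edgeR) and -0.05 (SE 0.07, adjusted p = 0.682), and Krt77 was higher with HFD (2.66, SE 0.23, adjusted p = 1.34e-11) and not called with EC359 against HFD (-0.31, SE 0.14, adjusted p = 0.106).

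The ratio of the named genes to the basal keratins Krt5 and Krt14 differed between groups. For every 100 counts of Krt5 and Krt14 together there were 27.0, 30.2 and 28.7 counts of the named genes with LFD, 103, 103 and 94.3 with HFD, and 71.4, 73.5 and 67.8 with HFD + EC359. The groups did not overlap. With EC359 the named genes were back at the LFD level in sum. Krt5 and Krt14, at 387 to 391 CPM, were then below their LFD level of 923 to 1063 CPM. That holds for Krt5 and Krt14 and not for all keratinocyte markers. Krt15, Col17a1, Trp63 and Dsg3 averaged at or above their LFD level with EC359, as given above, and ratios to them were not computed.

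**Figure D5:**
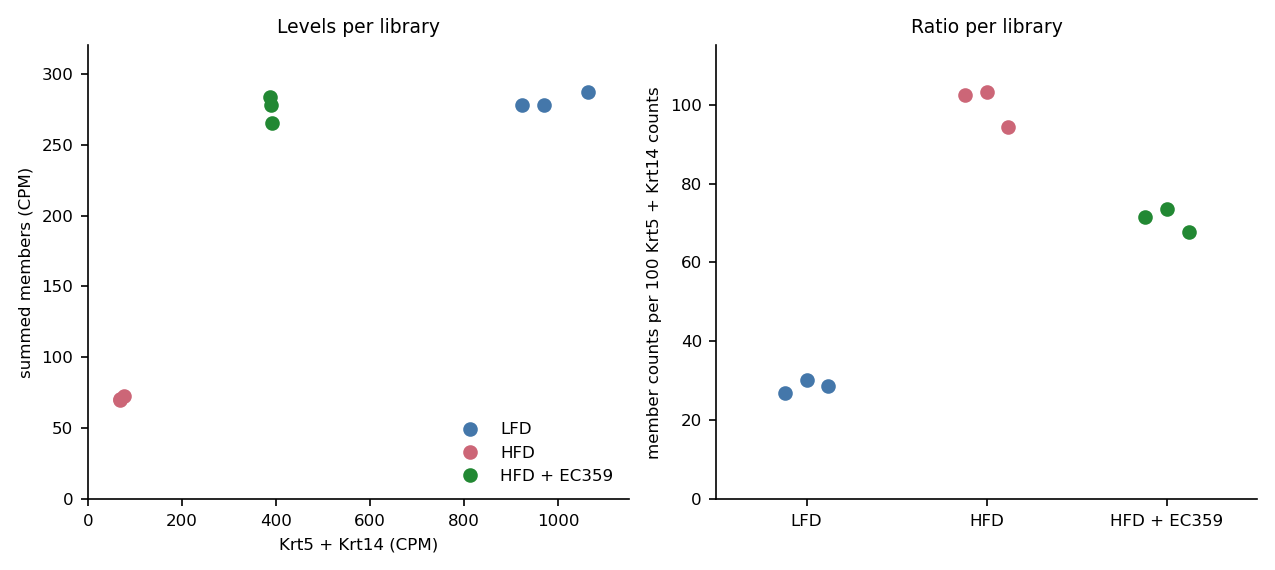
Left, summed CPM of the named genes (y axis) against summed CPM of Krt5 and Krt14 (x axis) in the 9 libraries, coloured by group; right, counts of the named genes per 100 counts of Krt5 and Krt14 (y axis) by group (x axis), 1 point per library. The LFD and HFD + EC359 libraries share a height in the left plot but not a position along the x axis, and the 3 groups are apart in the right plot.

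Some markers of other skin structures also moved. The 7 sebaceous gland markers summed to 88.7 to 95.1 CPM with LFD, 6.06 to 8.34 CPM with HFD and 33.1 to 35.1 CPM with HFD + EC359, mostly from Krt79, and 4 of 4 tested were lower with HFD. Hair follicle markers summed to 33.2 to 41.9, 7.73 to 8.96 and 21.8 to 25.5 CPM, mostly from Krt85 and Padi3. The change was mostly that of Krt85, which averaged 27.1, 0.529 and 12.2 CPM in the LFD, HFD and HFD + EC359 groups. Padi3 changed less (10.4, 7.59 and 10.8 CPM). The other listed markers were at or near 0, and 5 of 11 were at 0 in all libraries. Salivary gland markers were at 5.11 to 7.22, 4.17 to 7.66 and 8.41 to 9.33 CPM, nearly all from Aqp5, and 4 of 9 were at 0. The part of skin or gland cells in the results was not tested. Markers of the labelled carcinoma and mammary luminal epithelium summed to 1082 to 1117, 719 to 726 and 790 to 818 CPM, led by Krt8 and Krt18. Of 6 tested, 3 were lower with HFD and 3 higher with EC359 against HFD, and these were Cdh1 (27.7, 5.91 and 20.4 CPM on average in the LFD, HFD and HFD + EC359 groups), Epcam (7.18, 1.37 and 5.18 CPM) and Cldn4 (5.55, 0.778 and 3.08 CPM). Ltf was higher with HFD and lower with EC359 against HFD (2.56, 9.90 and 3.87 CPM), and the milk protein and alveolar genes Wap, Csn2, Csn3 and Elf5 were at or near 0. Skeletal muscle markers were at 127 to 143, 154 to 161 and 120 to 126 CPM, adipocyte markers at 13.6 to 19.1, 32.8 to 36.2 and 32.0 to 36.1 CPM, and leukocyte markers at 493 to 513, 592 to 607 and 726 to 751 CPM.

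The libraries also differed in how counts depended on base composition. The log2 level of genes of low GC content minus that of genes of high GC content was -0.53, -0.32 and -0.36 in the LFD libraries, 0.10, 0.13 and 0.16 in the HFD libraries, and 0.27, 0.25 and 0.30 in the HFD + EC359 libraries. The median GC content of the named genes was 51.7%, against 49.5% of all genes. With this trend removed from each library, 30 were lower with HFD and 32 higher with EC359 against HFD.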

How the data were processed

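RNA of 9 4T1 tumors (3 LFD, 3 HFD, 3 HFD + EC359) was sequenced as stranded, 150 bp paired-end mRNA libraries. The authors deposited expected counts per gene: per the file headers, featureCounts 1.5.0-p1 counted reads over exons of the mm9 annotation with strand, keeping multi-mapped and overlapping reads as fractions, so values need not be whole. The submitters' processing notes name HISAT2 2.1.0, whereas the methods of the study name TopHat2 and HTSeq; the file headers were followed. Fractions occurred in 1.19 to 3.55% of genes per library. Library totals were 5085268 to 9750959.

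Counts were rounded to whole numbers for tests and for CPM. Genes passing filterByExpr (13366) were fitted across all 9 libraries with edgeR 4.0.16 (TMM, quasi-likelihood, R 4.3.3), and p-values were adjusted by Benjamini-Hochberg over all genes tested. CPM are counts divided by the library total and multiplied by 1000000, and exon lengths are those of the files. The fit was tested on simulated data. Exact intervals (95%) cover counting error only. Most libraries of a group differed little beyond sampling noise (mean chi-square 1.35 to 2.99 per gene, highest in pairs with LFD library 1). The common coefficient of variation beyond counting noise in the fit was 3.63%. The p-values rest on this small spread, and whether it includes a spread between animals is not given. The numbers of the replicates did not pair the libraries (correlations -0.03 to 0.02).

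Members and lists were chosen with earlier results of these data known. Named are all members called in a comparison or with a mean of at least 1 CPM in a group, the 3 most abundant genes of each other list (some are not reported here), and, chosen after their values were seen, further list genes, low-count members and cluster neighbours. Alternatives were DESeq2 1.42.0, RLE and library-total scaling, other filters, the 6 libraries of a comparison alone, a replicate block, each library left out and, added after seeing the data, removal of the GC trend (GC content known for 22549 genes) and thinning to the smallest total. Motifs were searched in RefSeq promoter windows.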

Additional observations from a re-analysis of the deposited data

How the results depend on the processing

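With HFD no alternative called more of the named genes higher than lower, and with EC359 against HFD none called more lower than higher. Leaving out 1 library at a time gave 30 to 32 lower with HFD against LFD, 29 to 32 higher with EC359 against HFD and 2 to 2 higher with HFD + EC359 against LFD, and 0 to 0 in the other directions. An adjusted p under 0.05 at any fold change gave 1 higher with HFD and 8 lower with HFD + EC359 against LFD. Asking for at least 10 counts in every library left 10 of the 36 tested measurements. Of these 10, 7 were lower with HFD, 8 higher with EC359 against HFD and 1 higher with HFD + EC359 against LFD. The shares of all genes called under this filter are not given here, and those given above belong to the main filter. With the GC trend removed, 1 was higher and 1 lower with HFD + EC359 against LFD, the latter Sprr2a1/Sprr2a2 (log2 -1.13), and Krtdap was no longer called; the cause was not tested. The replicate block, although the numbers do not pair the libraries, gave 31 lower with HFD and 31 higher with EC359 against HFD, losing Lce1a2 with EC359 against HFD (1.55), and changed no other call.

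Of 1950 values of 108 log2 fold changes under alternatives, 1876 kept the call, 29 lost it, 18 gained one and 27 had another sign, 0 of these a called change and all between HFD + EC359 and LFD. With the GC trend removed these were Spink5 (-0.40), Lor (0.20), Sprr2h (-0.030), Sprr1b (-0.023), Lce1a2 (0.031) and Lce1g (-0.12). After thinning they were Sprr2h (-0.031), Lce1g (-0.18) and Klk10 (-0.15), and with RLE scaling Lce1g (-0.00099). Without 1 library at a time the value took another sign for Lce1g (range -0.196 to 0.190), Lce1i (-0.034 to 0.593), Klk11 (-0.681 to 0.143), Sprr1b (-0.114 to 0.193), Lce1a2 (-0.344 to 0.154), Sprr2h (-0.393 to 0.363), Spink5 (-0.0023 to 0.223), Klk10 (-0.051 to 0.311) and Klk6 (-0.023 to 0.254).

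Lce1a2 lost its call with HFD without HFD library 1 (-1.48) or 2 (-1.50) or LFD library 2 (-1.40), and with EC359 against HFD without HFD + EC359 library 1 (1.36) or 3 (1.496), HFD library 1 (1.32) or 2 (1.35) or LFD library 3 (1.55). Lce1l lost its call with EC359 without HFD + EC359 library 1 (2.15) or 3 (2.15) or HFD library 2 (2.19) or 3 (1.66). DESeq2 also did not call Lce1l with EC359 or Lce1a2 in either comparison. Counting error is wide where counts are few: 20 tested measurements had under 10 counts in each HFD library.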
